A study of Mus musculus with 36 samples.

Results

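Hsp90ab1, Ncl, Pkm, Eef1a1, Actb, Gapdh, Tubb5 and Ppia are 8 genes known for very abundant transcripts, 8 of the 21887 protein-coding genes on chromosomes 1 to 19, X and Y. They were selected on the presence of MBD3 peaks after day 0 in these same lists, which had been seen at several of them, so their MBD3 peaks are described here and were not tested. The peaks of 8 deposited lists were taken for each gene where they lay inside it or within 1 kb of its annotated ends on the mouse build mm10. This gave 39 MBD3 peaks and 28 CTCF peaks over 4 days. By this rule late MBD3 does not describe all 8 genes. MBD3 was in the lists of days 2, 4 and 6 and not of day 0 at Hsp90ab1 and Ncl, was on all 4 days at Pkm, Eef1a1 and Tubb5, was on day 2 alone at Actb and day 4 alone at Ppia, and was never at Gapdh.

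The study measured where CTCF and MBD3 lie on the genome of mouse embryonic stem (ES) cells by ChIP-seq, in which chromatin is sheared, pulled down with an antibody and sequenced. CTCF, MBD3 and input chromatin were each sampled on days 0, 2, 4 and 6, with 3 samples in each of the 12 groups and 36 samples in all. The peak lists are named WT for every day. The labels give no strain, and name no treatment that separates the days. The growth protocol names 1 medium, with KnockOut Serum Replacement and the factor LIF, and plates that typically carried irradiated mouse embryonic fibroblasts. Chromatin of such feeder cells could therefore be in the samples, and its share was not tested.

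MBD3 is a subunit of NuRD, a complex that joins a nucleosome remodelling enzyme to histone deacetylases and acts at promoters and enhancers of ES cells, where it is needed for orderly differentiation. Unlike other proteins of its family, mammalian MBD3 binds methylated DNA weakly. CTCF is a zinc finger protein that binds a long DNA motif and holds the ends of chromatin loops together with cohesin. The 8 genes serve basic work of the cell, namely protein folding, ribosome assembly, glycolysis, translation and the cytoskeleton, and several are common reference genes for expression and for chromatin assays.

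Each list pools the 3 replicates of its antibody and day, so there is no spread between replicates, and no difference between days or genes has a p-value. The MBD3 lists held 10464, 1991, 9006 and 10875 peaks on days 0, 2, 4 and 6, so day 2 was much the shortest. The CTCF lists held 47414, 28137, 36787 and 38109 peaks. The deposited fold is the number of fragments over a summit divided by the expected background there, each plus 1, as the peak caller MACS2 gives it. Whole numbers of fragments and the expected background were recovered from fold and p for at least 99.91% of the summits of each list. The lowest background that many peaks of a list share, its genome-wide level, was 1.51, 2.18, 1.93 and 1.41 fragments in the MBD3 lists. Fragments and background divided by this level can be set side by side between lists of unequal depth. Intervals given below are exact 95% Poisson intervals, which cover counting error only. PCR copies were not marked by molecular identifiers.

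On days 0, 2, 4 and 6 MBD3 peaks lay at 3, 6, 6 and 5 of the 8 genes. Over all protein-coding genes the same rule found MBD3 at 21.7%, 4.92%, 20.2% and 21.0% on those days. The genes were chosen with these peaks known, so nothing is read from the difference. MBD3 was on some later day and not on day 0 at 4 of them, beside 10.6% of coding genes, and on all of the later days and not day 0 at 2, beside 0.448%. It was on all 4 days at 3, beside 2.88%, and on no day at 1, beside 67.6%. CTCF, which the choice did not use, lay at 6, 3, 5 and 6 of the 8 genes by day, beside 56.7%, 39.4%, 46.2% and 47.2% of coding genes. It was on all 4 days at Pkm, Actb and Tubb5, beside 37.9%, and on no day at Hsp90ab1 alone, beside 41.0%. The members are short genes, from 3272 to 22797 bp with a median of 4739 bp, against a median of 17169 bp for coding genes.

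**Figure D1:**
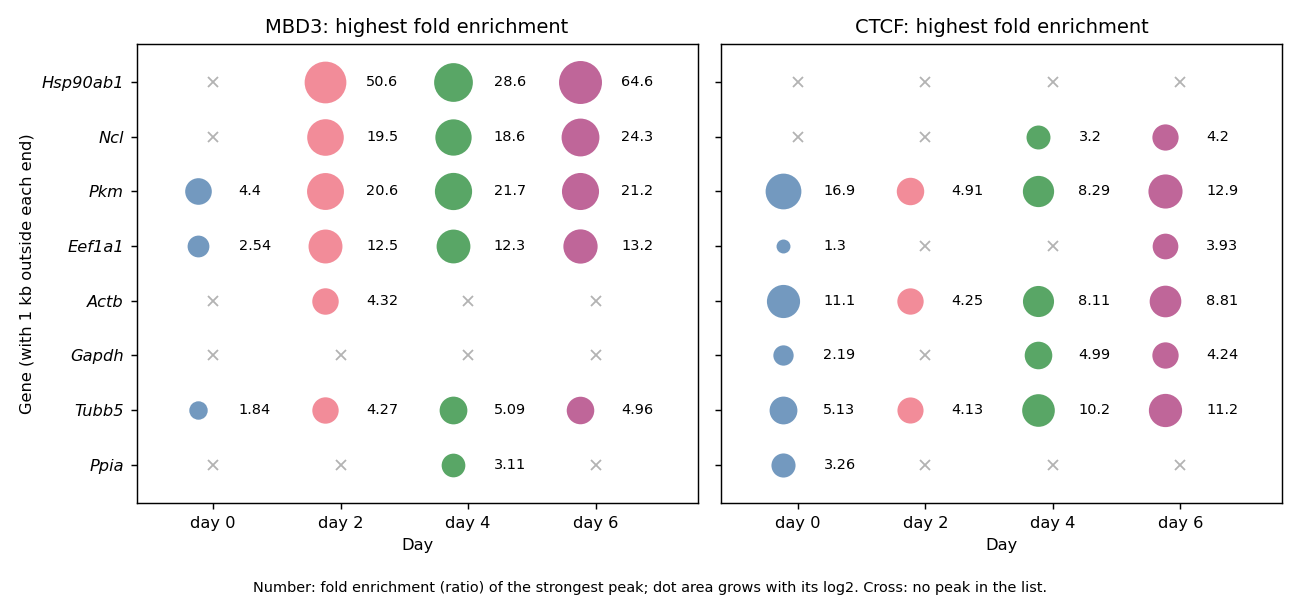
Fold of the strongest MBD3 peak (left panel) and CTCF peak (right panel) at each of the 8 genes (rows) on days 0, 2, 4 and 6 (columns), as the number beside each dot, whose area grows with the log2 of the fold; a cross is a list with no peak, and each list pools 3 replicates. MBD3 at Hsp90ab1 stands at 50.6, 28.6 and 64.6 on days 2, 4 and 6, and Gapdh has a cross on every day.

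All 39 MBD3 peaks lay wholly inside the genes, and 9 of them had their summit within 1 kb of an annotated end. These shares were not computed over all MBD3 peaks, so nothing is read from them. Most coding genes with MBD3 by the 1 kb rule also had it over the gene itself. They numbered 4202 of 4760, 964 of 1077, 3893 of 4418 and 4073 of 4592 by day. The annotation used gives outer ends only, so exons and introns were not told apart. Of the 39, 9 overlapped a CTCF peak of the same day, in numbers of 3 of 5, 0 of 11, 3 of 11 and 3 of 12 by day. Among all MBD3 peaks of these lists the shares overlapping CTCF were 88.9%, 53.7%, 84.3% and 91.8%. Most of the 39 peaks thus lay where CTCF was not called, but on day 0 the larger part, 3 of 5, overlapped CTCF. Sites called on several days are counted again for each day in these numbers. Because the genes were chosen with these peaks known, nothing is read from the contrast with all MBD3 peaks. By fold, 18 of the 39 were in the top 10% of their list, and 0 of those 18 overlapped CTCF. All 18 were at Hsp90ab1, Ncl, Pkm and Eef1a1, and a site called on several days counts again for each day. The genes were chosen with these peaks known, so nothing is read from the high ranks. The 9 peaks that overlapped CTCF had folds of 1.73 to 5.09.

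Many of the MBD3 peaks were wide and held several summits, 17 of the 39. By day this was 3 of 5, 4 of 11, 5 of 11 and 5 of 12, while several summits marked 3.38%, 8.39%, 3.66% and 2.20% of all MBD3 peaks. Most of the 17 were at Eef1a1, where every peak was of this kind, and at Tubb5. The rest were at Hsp90ab1 and Ncl, and a site called on several days counts again for each day. The genes were chosen with MBD3 peaks known, so nothing is read from the difference. Genes with 3 or more separate MBD3 peaks numbered 0, 1, 1 and 2 of the 8 by day, namely Hsp90ab1 on days 2 and 6 and Pkm on days 4 and 6. Among coding genes the shares were 1.31%, 0.0777%, 0.836% and 1.33%.

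**Figure D2:**
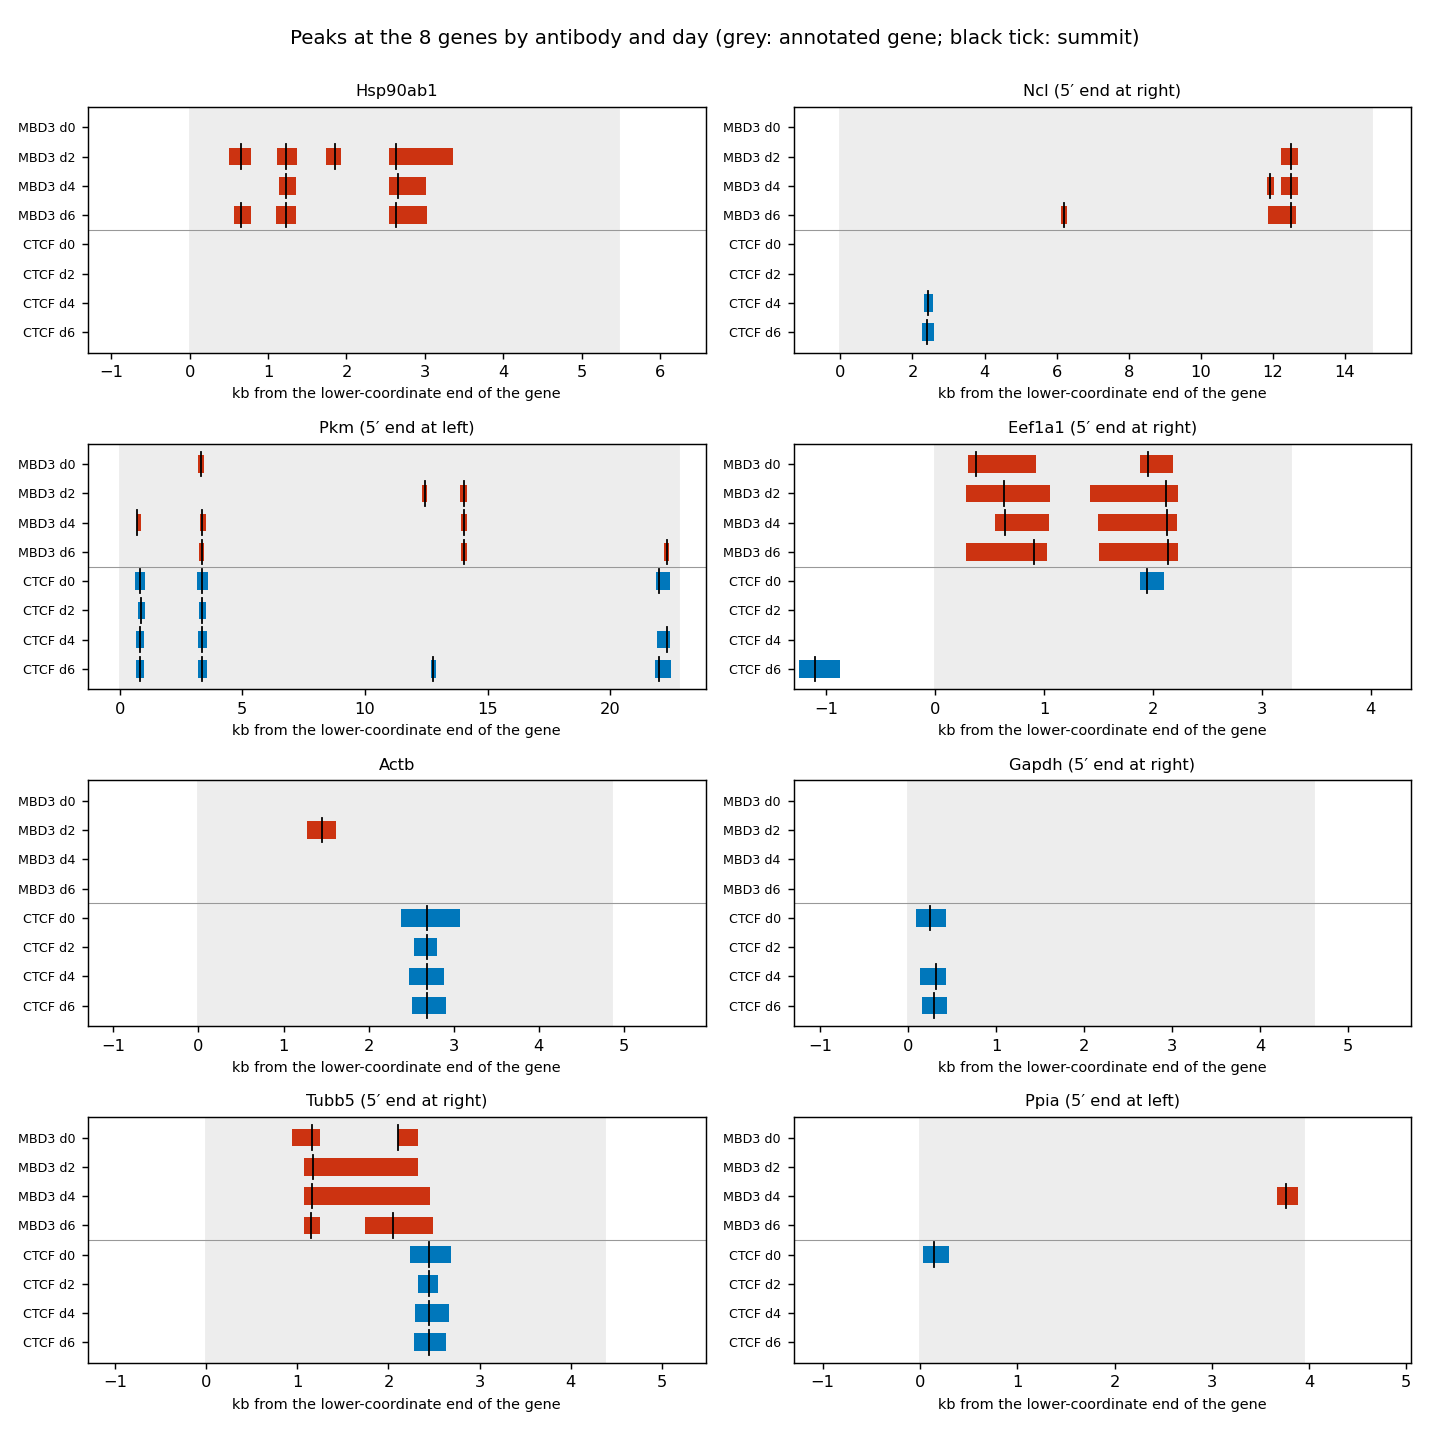
Peaks (bars) and summits of highest -log10 q (black ticks) at the 8 genes, in kb from the lower-coordinate end (horizontal axis), with 4 rows of MBD3 days in red above 4 rows of CTCF days in blue; grey marks the annotated gene. MBD3 at Hsp90ab1, at Ncl and about 14.0 kb into Pkm recurs at the same places on days 2, 4 and 6, away from the CTCF bars of those rows.

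Hsp90ab1 encodes the constitutive form of the cytosolic chaperone HSP90, which folds kinases and hormone receptors. The gene (identifier 15516) lies on chromosome 17 from 45567778 to 45573261. It had 0 MBD3 peaks on day 0 and 4, 2 and 3 on days 2, 4 and 6, and no CTCF peak on any day. This pattern over the 8 lists was shared by 30 coding genes including Hsp90ab1, or 0.137%. Its strongest site, between 45568881 and 45569142, held folds of 50.6, 28.6 and 64.6 on those days. In the lists of days 2, 4 and 6 this was the peak of rank 11, 14 and 7 by fold, and the gene ranked 4, 5 and 4 among coding genes by its highest fold. By day the site rested on 633 fragments (interval 585 to 684), 432 (392 to 475) and 500 (457 to 546). Relative to the level of each list these were 290, 224 and 355, over an expected background of 5.29, 7.31 and 4.79 levels. The day 4 value was thus the lowest by fold and by fragments, and the intervals of the fragments per level, 268 to 314, 203 to 246 and 324 to 387, do not overlap. These intervals leave out the spread between replicates.

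The summit of this site moved over 6 bp between the days and stood a mean of 1229 bp from the lower end of Hsp90ab1. Another group of summits, from 45570316 to 45571138, had folds of 8.01, 8.81 and 16.7 on days 2, 4 and 6. A further peak from 45568281 to 45568558 was called on days 2 and 6, with folds of 7.68 and 7.88, and 1 from 45569521 to 45569711 on day 2, with a fold of 3.35. Together the MBD3 peaks covered 28.1%, 12.6% and 17.6% of the gene. The neighbouring gene Slc35b2, a nucleotide sugar transporter gene, starts or ends 107 bp from Hsp90ab1, but all the peaks named so far lay inside Hsp90ab1. The call of late MBD3 without CTCF at Hsp90ab1 holds for the window of 1 kb and ends with a window of 5 kb. That window takes in a CTCF site, called on all 4 days with folds of 16.0, 6.46, 15.8 and 13.4, and an MBD3 peak over it on days 0, 4 and 6 with folds of 4.78, 4.72 and 3.40. The day 0 MBD3 peak there, from 45563721 to 45564005, is 3773 bp from Hsp90ab1 and overlaps an end of Slc35b2.

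Ncl encodes nucleolin, an RNA-binding protein of the nucleolus with roles in ribosomal RNA synthesis. The gene (identifier 17975) lies on chromosome 1 from 86344719 to 86359455, on the minus strand, and carries the small RNA gene Snord82 within it. MBD3 was absent from the day 0 list there. On days 2, 4 and 6 a peak with its summit 2229, 2227 and 2235 bp from the annotated 5′ end had folds of 19.5, 18.6 and 24.3, from 160, 122 and 158 fragments. In fragments per level the site stood at 73.4 (interval 62.5 to 85.7), 63.2 (52.5 to 75.5) and 112 (95.3 to 131). The intervals of days 2 and 4 overlapped and that of day 6 lay above them. They leave out the spread between replicates, so a difference between days was not tested. On days 4 and 6 peaks or summits were also called on its 3′ side, so that MBD3 spanned 86356552 to 86357416. Day 6 added a separate peak from 86350835 to 86351016 with a fold of 14.7. CTCF within the 1 kb window of Ncl was weak and far from MBD3, near the 3′ end between 86346991 and 86347317, with folds of 3.20 on day 4 and 4.20 on day 6. A window of 5 kb takes in a stronger CTCF site called on all 4 days, with folds of 16.0, 11.8, 25.5 and 19.6. An MBD3 peak of fold 5.86 lay over that site on day 6.

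Pkm encodes pyruvate kinase of muscle and of most dividing cells, the enzyme of the last step of glycolysis. The gene (identifier 18746) lies on chromosome 9 from 59656576 to 59679372 on the plus strand, and it held MBD3 of different kinds. A strong site without CTCF, between 59670465 and 59670740, was called on days 2, 4 and 6 with folds of 20.6, 21.7 and 21.2. Its summit lay about 14.0 kb from the 5′ end and moved over 7 bp. It rested on 295, 174 and 172 fragments, or 135, 90.2 and 122 per level. This site had no MBD3 peak on day 0, so Pkm counts as present on all 4 days only through its other sites.

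At the other kind of site, between 59659772 and 59660098 in Pkm, MBD3 overlapped CTCF. MBD3 was called there on days 0, 4 and 6 with folds of 4.40, 2.93 and 3.77. CTCF was called on all 4 days with folds of 16.9, 4.91, 8.29 and 12.9, and its summit was 27, 4 and 2 bp from that of MBD3 on days 0, 4 and 6. The folds of CTCF were thus above those of MBD3 on each of these days. Of the remaining CTCF sites, the 1 between 59657207 and 59657621 was called on all 4 days, with folds of 5.08, 2.53, 4.67 and 5.08, and overlapped a weak MBD3 peak of fold 2.14 on day 4. The site between 59678394 and 59679045 was called on days 0, 4 and 6, with an MBD3 peak of fold 2.89 on day 6. Both of these were sites where the weak MBD3 peak had CTCF under it. Pkm also had an MBD3 peak without CTCF on day 2, from 59668924 to 59669096, with a fold of 3.67, and a CTCF peak without MBD3 on day 6, from 59669273 to 59669485, with a fold of 3.69.

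2 annotated starts of Pkm have promoter windows in the RefSeq table (assembly GRCm38.p6), each with 250 bases before and 30 after the start. They are printed because a CTCF peak, and on day 4 a weak MBD3 peak, lie at the later of these starts and not at the earlier. Capitals mark bases under the day 0 CTCF peak. The windows are chr9:59656326-59656605 and chr9:59656977-59657256, both on the plus strand.
Pkm window 1: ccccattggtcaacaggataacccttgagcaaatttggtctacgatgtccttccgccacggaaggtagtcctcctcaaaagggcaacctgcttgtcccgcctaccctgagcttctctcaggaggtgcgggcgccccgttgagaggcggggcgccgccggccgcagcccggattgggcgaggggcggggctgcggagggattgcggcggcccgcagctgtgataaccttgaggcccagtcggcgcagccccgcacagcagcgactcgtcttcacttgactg
Pkm window 2: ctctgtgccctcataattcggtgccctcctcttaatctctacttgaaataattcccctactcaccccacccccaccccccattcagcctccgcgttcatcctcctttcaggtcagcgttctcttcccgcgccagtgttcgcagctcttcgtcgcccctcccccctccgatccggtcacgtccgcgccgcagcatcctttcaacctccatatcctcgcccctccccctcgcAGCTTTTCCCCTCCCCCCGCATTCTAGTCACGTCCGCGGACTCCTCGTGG
Window 2 overlapped CTCF peaks on days 0, 4 and 6, with 50 bases under that of day 0, and window 1 overlapped none. The day 4 MBD3 peak of Pkm, from 59657261 to 59657431, begins just past the end of window 2. Window 2 holds the letters CCCTC, from which CTCF takes its name, 7 times on the plus strand and 0 times on the minus strand, and window 1 holds them 0 times on the plus and 2 times on the minus strand (GAGGG as printed). Most of the copies in window 2 lie outside the capitals, and the summit of the day 0 CTCF peak, 59657411, lies past the end of the window. A part of these letters in the CTCF peak was not tested. Of all 32851 windows in the table, 63.83% hold CCCTC at least once on either strand. The windows have 24 and 22 CpG, against a median of 6 over all windows. The table holds 7 windows for 6 of the genes, none for Hsp90ab1 and Actb, and none of the 7 overlapped an MBD3 peak on any day.

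Gapdh, the glycolytic enzyme that oxidises glyceraldehyde 3-phosphate (identifier 14433, chromosome 6, 125161852 to 125166467, minus strand), had no MBD3 peak in any list. CTCF lay near its 3′ end, between 125161940 and 125162293, on days 0, 4 and 6 with folds of 2.19, 4.99 and 4.24. These rested on 75, 56 and 55 fragments, or 26.1, 30.6 and 29.4 per level. Fragments per level were thus close between the days while fold was lowest on day 0. The gene Iffo1 comes within 69 bp of Gapdh.

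Eef1a1 encodes the elongation factor that brings aminoacyl-tRNA to the ribosome. The gene (identifier 13627) lies on chromosome 9 from 78478453 to 78481724 on the minus strand, and is the shortest of the 8. MBD3 formed 2 broad peaks there on every day, covering 28.5%, 48.0%, 37.4% and 44.7% of the gene on days 0, 2, 4 and 6. By the share of its length under MBD3 Eef1a1 ranked 16, 8, 13 and 6 among the 4202, 964, 3893 and 4073 coding genes with MBD3 inside. Its highest fold was 2.54 on day 0 and 12.5, 12.3 and 13.2 later. CTCF was called inside the gene on day 0 alone, with a fold of 1.305 from 198 fragments over an expected 151.5, or 52.8 levels. On day 6 a CTCF peak of fold 3.93 lay outside the gene, from 78477204 to 78477581.

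At Eef1a1 fold was higher after day 0, but all fragments of the MBD3 samples relative to the level of the list, with background not taken off, were not. At its summit with the most fragments, near 78480589 and called on all 4 days, fold was 1.51, 12.5, 12.3 and 13.2. The fragments there were 254, 200, 153 and 151, or 168 (interval 148 to 190), 91.7 (79.5 to 105), 79.3 (67.2 to 92.9) and 107 (90.7 to 126) per level. All fragments relative to level were therefore highest on day 0, beyond counting error. This does not make MBD3 highest on day 0, since 168.1 of the 254 fragments were expected from background on that day. The expected numbers on days 2, 4 and 6 were 15.1, 11.5 and 10.5. The expected background there was 111 levels on day 0 and 6.91, 5.97 and 7.45 levels on days 2, 4 and 6.

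There were 5 summits found on all 4 days, 3 in Eef1a1 and 2 in Tubb5. At all 5, fold was lowest and fragments per level, background included, highest on day 0. For 3 of them the day 0 interval overlaps that of a later day. Whether fragments beyond background were lower on day 0 differs between summits and was not tested. At the Eef1a1 summit near 78480410, fragments were 99.3, 58.7, 35.2 and 36.9 levels by day. The expected background at that summit was 43.0, 4.85, 4.26 and 4.87 levels. The expected background at these 5 summits was 19.7 to 111 levels on day 0 and 3.05 to 8.03 levels on the later days. In the lists as wholes it did not move so, with a median of 4.52, 4.88, 4.88 and 4.64 levels by day. Over the MBD3 peaks called at the 8 genes the median was 19.7, 5.29, 3.89 and 4.79 levels. The day 0 value rests on 5 peaks, those of Eef1a1 and Tubb5 at 18.4 to 43.0 levels and that of Pkm at 3.55. The later values also rest on peaks of other members. The part of this background in the low day 0 folds, or in the absence of day 0 peaks at other members, was not tested. Hsp90ab1 and Ncl have no summit on day 0, so neither fragments nor background can be recovered there for that day. Without peaks whose background was above 10 levels, MBD3 was left on day 0 at 1 of the 8 genes, Pkm, and 4 of the 8 were in the lists of days 2, 4 and 6 but not of day 0.

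**Figure D3:**
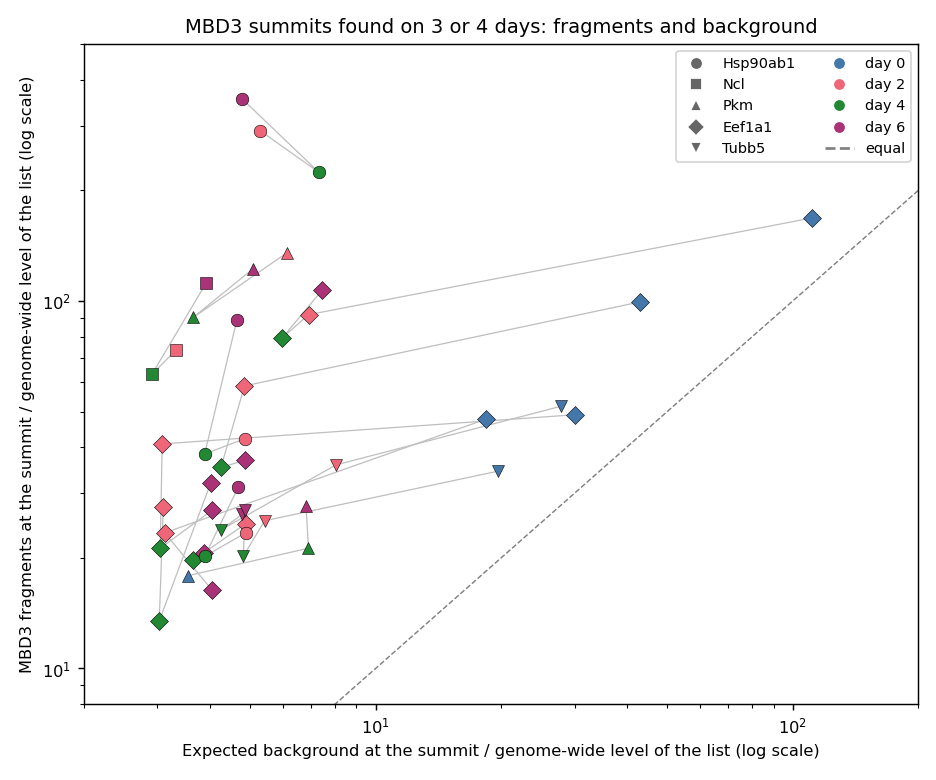
MBD3 fragments (vertical axis) against expected background (horizontal axis) at summits found on 3 or 4 days, both divided by the genome-wide level of the list on log scales; symbols stand for genes, colours for days, grey lines join the days of 1 summit and the dashed line marks equal values. The day 0 points of Eef1a1 and Tubb5 lie to the right, at 19.7 to 111 levels of background for the 5 summits with 4 days, and the later points at 3.05 to 8.03.

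Tubb5 encodes a beta-tubulin of dividing cells. The gene (identifier 22154) lies on chromosome 17 from 35833920 to 35838301 on the minus strand, and MBD3 covered 12.3%, 28.6%, 31.4% and 21.1% of it by day. At the summit near 35835084, fold was 1.84, 4.27, 5.09 and 4.91, while fragments per level were 51.7 (interval 40.8 to 64.5), 35.8 (28.3 to 44.7), 23.8 (17.5 to 31.8) and 26.2 (18.5 to 36.2). Fold was thus lowest on the day with the most fragments per level. The background was 27.8 levels on day 0 and 8.03, 4.27 and 4.78 levels later. At the other summit, near 35836024, fold was 1.73, 4.37, 3.88 and 4.96 and fragments per level were 34.4, 25.2, 20.2 and 27.0. CTCF stood beside it on all 4 days, between 35836155 and 35836608, with folds of 5.13, 4.13, 10.2 and 11.2. MBD3 overlapped this CTCF peak on days 0, 4 and 6, and on day 2 MBD3 ended at 35836247, the base before the CTCF peak began.

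Actb, which encodes beta-actin (identifier 11461, chromosome 5, 142903115 to 142907976), had MBD3 on day 2 alone, from 142904389 to 142904728 with a fold of 4.32 and 70 fragments (interval 54.6 to 88.4). Its CTCF site was on all 4 days, between 142905493 and 142906186, with folds of 11.1, 4.25, 8.11 and 8.81. The CTCF summit moved over 10 bp and was 1234 bp from the MBD3 summit on day 2. MBD3 and CTCF at Actb were thus at different places.

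Ppia encodes cyclophilin A, a peptidyl-prolyl isomerase that helps proteins fold (identifier 268373, chromosome 11, 6415867 to 6419817, plus strand). It had 1 MBD3 peak, on day 4, from 6419542 to 6419755 near the 3′ end, with a fold of 3.11 and 20 fragments (interval 12.2 to 30.9). It had 1 CTCF peak, on day 0, from 6415900 to 6416161 near the 5′ end, with a fold of 3.26. The 2 calls at Ppia were thus at opposite ends and on different days, and both were weak, at percentiles 23.81 and 15.43 of fold in their lists. A window of 5 kb takes in a CTCF site called on all 4 days, with folds of 8.085, 4.44, 11.7 and 11.8.

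Eef1a1, Actb, Gapdh and Ppia have pseudogenes elsewhere that the reference table ties to them by symbol or synonym, in numbers of 2, 1, 3 and 60. Copies under other names were not counted, so these numbers can be too low and the other members can have copies too. How the authors placed reads that fit several copies is not given in the sources used here. Eef1a1-ps1, on chromosome 19 from 17926557 to 17928613, had MBD3 on all 4 days, with folds of 4.66, 25.7, 11.1 and 26.2. Its fold was thus above that of Eef1a1 itself on days 0, 2 and 6, and it had no CTCF. Of the 60 Ppia copies, Gm6061 had MBD3 on day 2 with a fold of 3.08 and Gm13493 on day 6 with a fold of 3.83. Over all pseudogenes MBD3 was at 2.13%, 3.49%, 3.34% and 3.95% by day. For pseudogenes only peaks over the pseudogene itself were counted, without flanks, so these shares are not on the rule used for genes. Whether reads were exchanged between a gene and its copies was not tested.

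The members were set beside 66 other genes of the same functions, in lists of chaperones, glycolysis, cytoskeleton, translation factors, nucleolar proteins and isomerases. MBD3 was at 20 (30.3%), 15 (22.7%), 22 (33.3%) and 23 (34.8%) of them on days 0, 2, 4 and 6, read beside the shares of coding genes given above. Of the 66, 19 (28.8%) had MBD3 on a later day and not day 0, and 27 (40.9%) on no day. The 18 genes of differentiated tissues, such as Alb of liver and Myh6 of heart, had MBD3 at 4, 2, 4 and 4. These shares were not tested, and the median length of the 66 genes was 10394 bp.

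By function, chaperones had MBD3 at 3, 5, 3 and 4 of 15 genes by day. Hspa5, the chaperone of the endoplasmic reticulum, had it on day 6 alone, with a fold of 4.40, while Hsp90aa1, the inducible partner of Hsp90ab1, had none on any day. Glycolysis genes had MBD3 at 6, 0, 5 and 3 of 13, and Hk2, a hexokinase, had folds of 3.61 and 5.32 on days 4 and 6. On day 2 MBD3 was thus at Pkm and at none of these 13 genes or Gapdh, beside 4.92% of coding genes. Pkm was chosen with its peaks known, so nothing is read from this contrast. Cytoskeleton genes had MBD3 at 3, 5, 3 and 6 of 13. Pfn1, the actin-binding profilin, had folds of 5.12, 3.71 and 4.01 on days 2, 4 and 6 at a peak it shares with the neighbouring gene Eno3. Tubb3, Cfl1 and Tubb6 also had MBD3 on day 6 and not day 0, with folds of 4.12, 3.28 and 3.36 on day 6.

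Translation factors had MBD3 at 4, 4, 5 and 4 of 10, and none of them was called on day 6 and missing on day 0. Nucleolar proteins had MBD3 at 2, 0, 2 and 4 of 8. Nop56 and Nolc1, which serve the small nucleolar ribonucleoproteins, had folds of 3.31 and 3.07 on day 6, each with CTCF in the gene window on all 4 days. Isomerases had MBD3 at 2, 1, 4 and 2 of 7. The folds of these named genes on day 6 were 3.07 to 5.32. They are only the genes with MBD3 on day 6 and not day 0, and genes of the lists with MBD3 on both days were left out. The highest fold of Tubb5 on day 6, 4.96, lay within this range, and those of Hsp90ab1, Ncl, Pkm and Eef1a1 lay above it. Pkm, Eef1a1 and Tubb5 have MBD3 on day 0 and the members were chosen with these peaks known. The sets are thus unlike, and nothing is read from the difference.

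**Figure D4:**
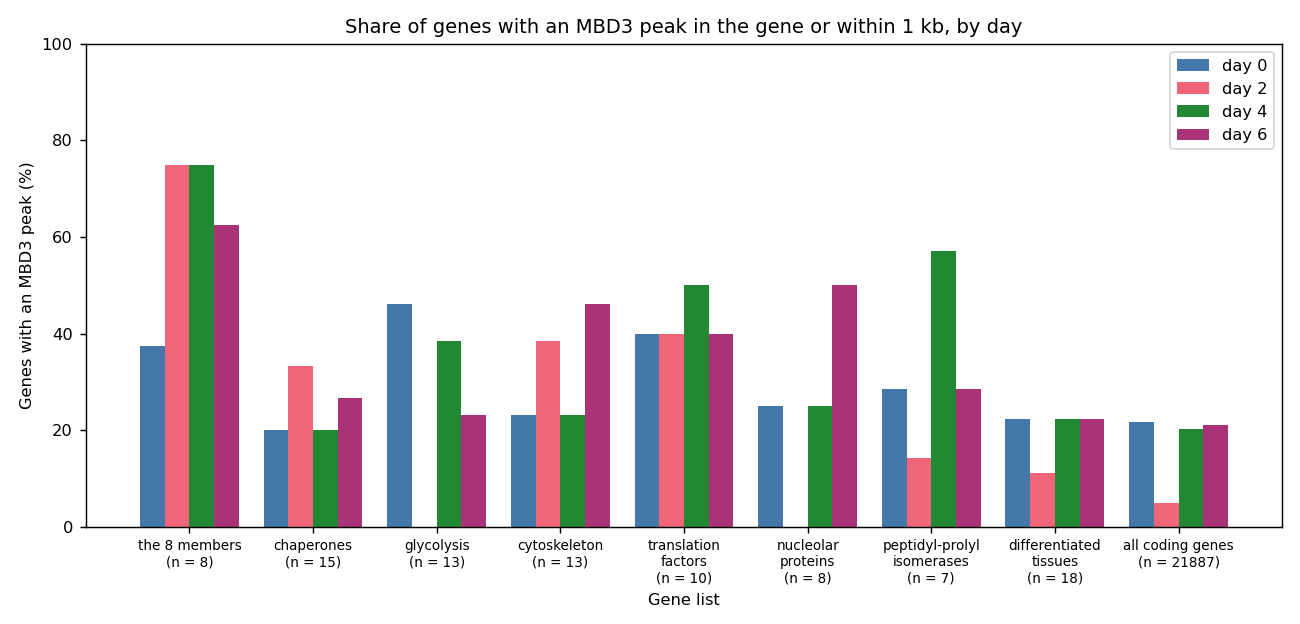
Percent of genes with an MBD3 peak in the gene or within 1 kb (vertical axis) for the 8 genes, the 6 lists of like function, genes of differentiated tissues and all coding genes, with 1 bar for each day. The 8 genes were chosen with these peaks known; glycolysis and nucleolar genes have no bar on day 2, when 4.92% of coding genes had MBD3.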

How the data were processed

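The 36 ChIP-seq samples fall by their labels into 12 groups of 3 (CTCF, MBD3 or input on 4 days). The tools named per the submitters' processing notes are Bowtie2 2.3.4 and MACS2 2.1.2, beside SAMtools 1.9, bedtools 2.25.0 and FastQC 0.11.7, with build mm10. The names of the 8 deposited peak lists say that replicates were pooled, and settings of the peak caller are not given in the sources used here. The authors deposited for each summit a fold enrichment (a ratio), a -log10 p and a -log10 q. The deposited score and strand columns were not used.

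Rows with the same interval were counted as 1 peak with the summit of highest -log10 q. A gene held a peak that overlapped it or its 1 kb flanks by at least 1 bp, with genes from a RefSeq table of GRCm38.p6. Pseudogenes were counted without flanks. MACS2 computes fold and Poisson p from whole fragments and an expected background, and both were solved from the deposited values, within 0.05% of the -log10 p and tested on simulated data. The genome-wide level is the lowest background found at 0.5% or more of a list's peaks. Summits within 60 bp were matched between days. Coordinates are 1-based.

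The members and the gene lists were chosen with earlier results of these data known. All members are named, with up to 4 genes a list that had MBD3 on day 6 and not day 0, by day 6 -log10 q. Named besides are the 5 genes of highest day 6 fold that share the pattern of Hsp90ab1, pseudogenes tied to a member by name, and genes whose windows touch a member. A gene that this rule names is not reported here. No test was made, since each group is 1 pooled list. Alternatives were a window of 5 kb, a -log10 q of at least 10, equal numbers of peaks a list, each summit as a peak, CTCF summits within 100 bp, and leaving out peaks of high background. Python 3.11.15, pandas 2.3.3 and scipy 1.17.1 were used.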

Additional observations from a re-analysis of the deposited data

How the results depend on the processing

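No paired analysis was possible because the peak lists pool the replicates and carry no replicate number, and for the same reason no replicate could be left out. Of 156 values recomputed under an alternative, 113 stayed near the first value and 43 moved, all of them listed here; stricter settings keep fewer peaks by construction, and otherwise the cause was not tested. With a -log10 q of at least 10, MBD3 on day 0 was at 1 of the 8 genes with 1 peak in place of 3 with 5, and 4 genes in place of 2 had MBD3 on days 2, 4 and 6 and not day 0. Peaks overlapping CTCF were then 0, 1 and 1 on days 0, 4 and 6 in place of 3 on each. The 66 genes held MBD3 at 8, 12 and 12 on those days in place of 20, 22 and 23, the tissue genes at 2 in place of 4 on day 0, and all coding genes at 2016, 641, 2188 and 2686 in place of 4760, 1077, 4418 and 4592 by day. With equal numbers of peaks in every list, 1 gene and 1 peak remained on day 0, 7 peaks in place of 11 on day 4, and 0 peaks overlapped CTCF on days 0, 4 and 6. The 66 genes then held MBD3 at 4, 8 and 8, the tissue genes at 2, 2 and 2, and coding genes at 1168, 1197 and 1023 on days 0, 4 and 6, and CTCF was at 3 members in place of 6 on day 0. Without peaks of background above 10 levels, day 0 had 1 gene with 1 peak, which overlapped CTCF (1 in place of 3), and the late pattern had 4 genes. Counting each summit gave 9, 20, 19 and 20 MBD3 peaks in place of 5, 11, 11 and 12. Requiring CTCF summits within 100 bp left 1 peak in place of 3 on days 4 and 6. A window of 5 kb put CTCF at 8, 6, 8 and 8 members in place of 6, 3, 5 and 6 by day, and left 1 gene, Ncl, in place of 2 with the late pattern, since Hsp90ab1 gained MBD3 on day 0. The depth of single samples is unknown, and a missing peak does not show that MBD3 was absent.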

Other observations

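The pattern of Hsp90ab1, with MBD3 on days 2, 4 and 6, not on day 0, and no CTCF on any day, was shared by 30 coding genes including itself of the 21887. After Hsp90ab1 the highest day 6 folds among them were at Bex3, Trap1a, Tceal9, Ssb and Pqbp1. Bex3, on chromosome X from 136270253 to 136271978, had folds of 9.79, 12.6 and 19.3 on days 2, 4 and 6. Trap1a, also on X, had folds of 13.4, 11.4 and 18.6, and Tceal9, a neighbour of Bex3 on X, had folds of 7.51, 7.22 and 14.0. Ssb, on chromosome 2, which encodes the La protein that binds new small RNAs, had folds of 9.11, 8.81 and 12.4. Pqbp1, on X, had folds of 10.0, 6.00 and 12.4. Of the 30 genes, 5 were on X, beside 4.41% of coding genes, and this was not tested. Likeness here means presence or absence in the 8 lists, and each list pools its samples.

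The narrow placing of MBD3 summits over days 2, 4 and 6 was not limited to the 8 genes. The sites counted here were not filtered on day 0, so they are not late sites only, and those of the members were not left out. Of MBD3 sites with 1 peak on each of days 2, 4 and 6, the 386 without CTCF on day 2 had summits within a median range of 16 bp, and the 753 with CTCF within 13 bp. Their lower edges moved by medians of 27 and 56 bp. Among the 18 genes of differentiated tissues, Apoa1, an apolipoprotein of liver and gut, and Gh, the growth hormone of the pituitary, had MBD3 on day 6 and not day 0, with folds of 3.76 and 4.18, and both had CTCF in the gene window on all 4 days.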
